A study of Populus deltoides with 12 samples.

Results

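Among the genes that were strongly higher in the purple than in the green leaves of the poplar cultivar ZSY, 26 differed little between purple leaves of QHP and green leaves of L2025. They were chosen from the group means of log2(FPKM + 1), where FPKM is the number of fragments of a gene scaled to its transcript length and to the size of the library. A gene was taken when the purple ZSY leaves (F_P) stood at least 2 log2 units above the green ZSY leaves (F_G), the purple QHP leaves (P) and the green L2025 leaves (G) lay within 0.5 log2 units of each other, and F_P averaged at least 5 FPKM. Genes that the study itself lists as anthocyanin structural genes, or sets against anthocyanins among its MYB and bHLH transcription factors, were left out. The tables held 46170 genes in all, 44853 of them annotated genes with a Podel identifier, and the 26 genes are a subset of these 44853. No marker genes define the set, which rests on the 2 differences and the level alone.

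Leaves of *Populus deltoides*, the eastern cottonwood, were profiled by RNA-seq in 12 libraries, 3 biological replicates in each of 4 groups. All plants were 2 years old and grew in one field, and the genotype of each is given as WT. ZSY bears purple and green leaves, and fully expanded leaves of each color gave F_P and F_G. QHP has purple leaves only and L2025 has green leaves only, so that P vs. G compares 2 cultivars as well as 2 colors, and cultivar and color cannot be told apart there. From QHP and L2025 the mature leaves at the fourth and the fifth position were taken, while no position was stated for the ZSY leaves used for RNA-seq, and whether F_P and F_G leaves came from the same plants was not stated.

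Purple color in poplar leaves comes from anthocyanins, which are made in the cytoplasm from phenylalanine through the phenylpropanoid and flavonoid pathways. Glycosyltransferases attach sugars to the pigment, and glutathione S-transferases take part in bringing it into the vacuole. A bicolored cultivar allows purple and green leaves of 1 cultivar to be set side by side, whereas a gene that differs between 2 cultivars may differ for reasons other than color.

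Between 14543579 and 16628923 fragments per library fell on annotated genes, so that depth was similar over the 12 libraries. The 26 genes held 0.116% to 0.119% of the fragments in F_P libraries and 0.0178% to 0.0218% in F_G libraries, against 0.0304% to 0.0338% in P libraries and 0.0257% to 0.0313% in G libraries. Genes for light-harvesting antenna proteins, which mark leaf mesophyll, and genes of DNA replication, which mark dividing cells, had summed levels that varied with the group. The summed level of the 23 antenna genes was 7392 to 7604 FPKM in F_P and 9340 to 10909.7 FPKM in F_G, against 6131 to 6557 FPKM in P and 20767 to 23791 FPKM in G. That of the 25 replication genes was 105 to 111 FPKM in F_P and 157 to 181 FPKM in F_G, against 133 to 143 FPKM in P and 205 to 252 FPKM in G. None of the antenna and replication genes was at 0 in all 12 libraries. Both lists were picked by the study from these libraries, and their part in the levels below was not tested. In bulk leaf RNA, fewer cells of a type and less RNA per cell cannot be told apart.

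Of 16422 annotated genes with at least 5 FPKM in F_P, 197 stood at least 2 log2 units higher in F_P than in F_G. In 164 of these, P was also at least 0.5 log2 units above G, in 6 it was at least 0.5 below G, and in 27 it lay within 0.5 of G. The gene left out of the 27 was PdeUFGT3 (Podel.06G057500), which the study names as a flavonoid glucosyltransferase gene. Its levels were 9.38, 12.1 and 11.2 FPKM in F_P and 0.507, 1.48 and 1.87 FPKM in F_G, against 0.409, 0.332 and 0.758 FPKM in P and 0.0793, 0.169 and 0 FPKM in G. F_P was thus above the other 9 libraries, which were all under 2 FPKM. The study counts this gene as upregulated in both purple groups. Here too its P libraries lay above its G libraries without overlap. Its P minus G of 0.46 log2 units fell within the limit at levels where adding 1 compresses differences. The median mean level in F_P was 10.6 FPKM in the 26 genes and 30.9 FPKM in the 164 genes higher in both purple groups. Because adding 1 compresses P minus G at low levels, low genes come within 0.5 more easily. The choice itself thus favors low levels among the 26, and nothing is read from this difference. The F_P minus F_G differences had medians of 2.41 log2 units in the 26 genes and 2.42 in the 164 genes, although the largest was 3.62 among the 26 genes and 5.80 among the 164.

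**Figure D1:**
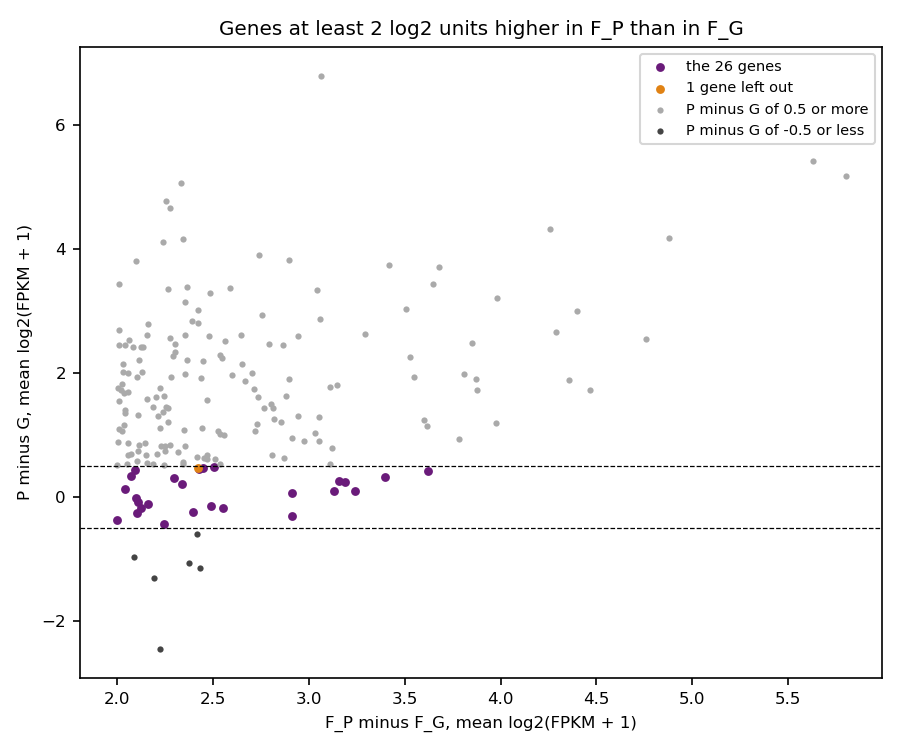
Each point is 1 of the 197 annotated genes at least 2 log2 units higher in F_P than in F_G and with at least 5 FPKM in F_P. The x axis gives F_P minus F_G and the y axis P minus G, both as differences of group means of log2(FPKM + 1), and dashed lines mark 0.5 and -0.5. The 26 genes lie between the lines, while 164 genes lie above them and 6 below.

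Because these 2 differences chose the genes, they are given as a description. F_P minus F_G ran from 2.00 to 3.62 log2 units, and P minus G from -0.43 to 0.48, with 15 genes slightly higher in P and 11 slightly lower in P. The 3 F_P libraries lay above the 3 F_G libraries in all 26 genes, as in 30.7% of all genes tested. P and G libraries did not overlap in 6 of the 26, against 67.8% of all genes tested. In a fit of the 6 ZSY libraries (limma, adjusted p up to 0.05 and 1 log2 unit or more), 5.68% of 25713 genes were called higher in F_P than in F_G, and all 26 were among them. None (0) of the 18 that could be tested in P vs. G was called in either direction, against 9.85% of 26577 genes higher and 16.2% lower, and the other 8 fell below the filter of 1 FPKM in 3 libraries. Nothing is read from these counts, since the same contrasts made the choice.

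Close to the limits, Podel.06G208100 and Podel.05G267100 lay just inside with F_P minus F_G of 2.00 and 2.04, and Podel.T052300 and Podel.05G045400 just outside with 2.00 (below 2 before rounding) and 1.97. For P minus G, Podel.08G077000 and Podel.02G135100 were inside with 0.48 and 0.47, while Podel.03G222700 and Podel.05G108400 were outside with 0.50 and 0.51. For the level in F_P, Podel.19G005200 and Podel.14G023300 were inside with 5.54 and 5.63 FPKM, while Podel.19G087700 and Podel.05G092100 were outside with 4.44 and 4.35 FPKM.

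A gene can meet the rule because F_P is high, because F_G is low, or both, and the 6 libraries of P and G show which. In 17 of the 26 genes F_P stood alone, at least 1 log2 unit above both P and G, while F_G lay within 1 unit of the nearer of these. In 5 genes F_G stood alone, at least 1 unit below both P and G, while F_P lay within 1 unit. In 3 genes F_P was high and F_G low by this measure, and 1 gene, Podel.06G097600, fell in none of these patterns because F_G was itself above P and G. Every F_P library was above each of the other 9 libraries in 22 of the 26 genes, against 14.3% of all 28339 genes tested. Every F_G library was below each of the other 9 in 10 genes, against 5.28%. The limits of the rule make such separations likely, so the shares describe the 26 genes and test nothing.

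**Figure D2:**
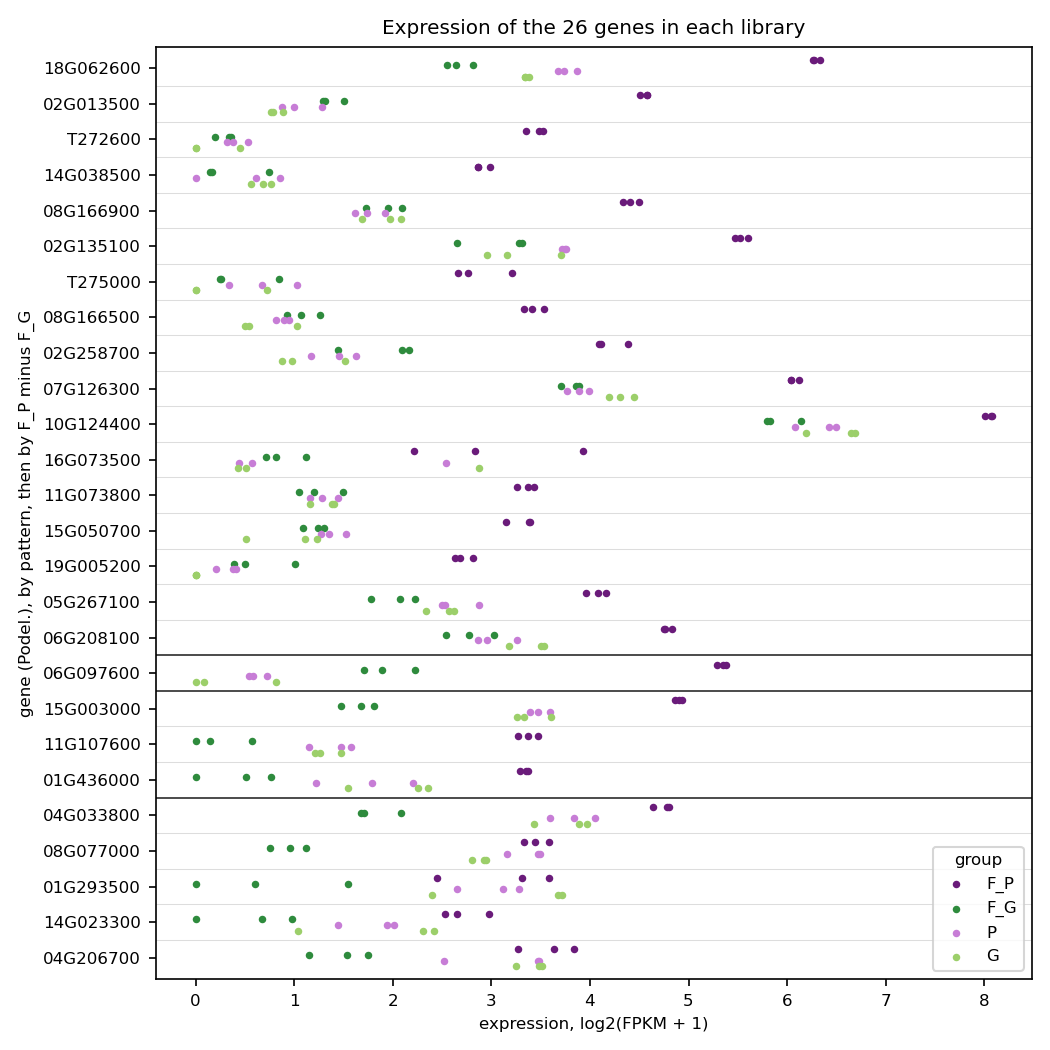
Expression of the 26 genes as log2(FPKM + 1) on the x axis, with 1 point per library and 3 libraries per group (F_P, F_G, P and G from top to bottom within a gene). Dark lines separate, from the top, the 17 genes with F_P high, Podel.06G097600, the 3 genes with F_P high and F_G low, and the 5 genes with F_G low.

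Among the 17 genes in which F_P stood alone, the most abundant was Podel.10G124400 on chromosome 10, from 12872152 to 12874182, for which no functional term could be read. The 3 libraries gave 269.6, 256 and 267 FPKM in F_P and 54.7, 55.9 and 69.5 FPKM in F_G. Those of the other cultivars gave 66.6, 89.1 and 85.03 FPKM in P and 99.1, 102 and 72.2 FPKM in G. F_P was far above the other 9 libraries, and F_G was lowest on average, with F_G minus the lower of P and G at -0.41 log2 units. Podel.07G126300 on chromosome 7, from 14115695 to 14117776, was similar at a lower level. Its levels were 68.4, 64.8 and 64.7 FPKM in F_P and 13.5, 12.01 and 13.9 FPKM in F_G, against 14.9, 13.9 and 12.6 FPKM in P and 18.8, 20.9 and 17.3 FPKM in G. Here P and G did not overlap, with P slightly lower, and F_G overlapped only P.

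The largest F_P minus F_G belonged to Podel.18G062600, which the study's gene ontology lists place under hydrolase activity acting on ester bonds, the class of enzymes that includes lipases and esterases. It lies on chromosome 18 from 7556487 to 7571156. In Podel.18G062600 there were 79.9, 76.1 and 75.5 FPKM in F_P and 5.23, 4.87 and 6.02 FPKM in F_G, against 13.6, 11.8 and 12.4 FPKM in P and 9.14, 9.11 and 9.41 FPKM in G. F_P exceeded F_G by 3.62 log2 units, P exceeded G by 0.41, and the groups followed the order F_P, P, G and F_G with no overlap. F_G minus G was -0.68, so that both ZSY colors differed from the other cultivars, F_P far more than F_G.

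Podel.02G013500, a gene under serine-type peptidase activity (enzymes that cut proteins with a serine in the active site), lies on chromosome 2 from 806473 to 810195 and has 12 exons. It had 22.8, 22.9 and 21.8 FPKM in F_P leaves and 1.48, 1.83 and 1.45 FPKM in F_G leaves, against 1.00, 1.43 and 0.839 FPKM in P leaves and 0.852, 0.698 and 0.722 FPKM in G leaves. F_P stood 3.50 log2 units above P, the higher of the other cultivars. All other libraries were under 2 FPKM.

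Podel.T275000, on scaffold 855 from 7018 to 8097, is placed in glutathione metabolism, the pathway that contains glutathione S-transferases. The 3 libraries gave 5.35, 5.80 and 8.25 FPKM in F_P and 0.199, 0.184 and 0.796 FPKM in F_G. Those of the other cultivars gave 1.05, 0.595 and 0.264 FPKM in P and 0, 0.650 and 0 FPKM in G. These levels rest on 56, 61 and 90 fragments in F_P and 2, 2 and 8 in F_G, against 12, 7 and 3 in P and 0, 6 and 0 in G. F_P was apart from every other library, whereas the order of the other 3 groups could not be resolved at this depth.

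Podel.14G038500, under heme and iron binding, a property shared by cytochromes P450 and peroxidases, lies on chromosome 14 from 2843895 to 2846238. Its levels were 6.95, 6.28 and 6.31 FPKM in F_P and 0.674, 0.110 and 0.119 FPKM in F_G, against 0, 0.811 and 0.525 FPKM in P and 0.605, 0.474 and 0.697 FPKM in G. F_P lay 2.24 log2 units above G, and F_G, P and G overlapped. Podel.19G005200, under binding of flavin adenine dinucleotide, a cofactor of many oxidoreductases, lies on chromosome 19 from 510206 to 512572. In Podel.19G005200 there were 5.41, 5.19 and 6.03 FPKM in F_P and 0.314, 0.419 and 1.01 FPKM in F_G, against 0.305, 0.327 and 0.154 FPKM in P and 0, 0 and 0 FPKM in G. In G it had 0 fragments in each library, against 10, 11 and 5 fragments in P, so that P minus G of 0.33 log2 units does not mean that P and G were equal. With a floor of 3 fragments per library, a ratio between P and G is not given, as P was near that floor.

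Podel.T272600, on scaffold 841 from 11927 to 14719, had no readable term. It had 10.2, 10.5 and 9.22 FPKM in F_P leaves and 0.143, 0.265 and 0.286 FPKM in F_G leaves, against 0.2503, 0.305 and 0.443 FPKM in P leaves and 0, 0 and 0.370 FPKM in G leaves. Its fragments numbered 149, 154 and 140 in F_P but 2, 4 and 4 in F_G, against 4, 5 and 7 in P and 0, 0 and 5 in G. The other 9 libraries thus had 0 to 7 fragments each.

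Podel.08G166500 and Podel.08G166900 were the only pair of the 26 within 5 genes of each other. They lie 4 genes apart on the plus strand of chromosome 8, with 33670 bases between them, and each has 10 exons. The first had 9.09, 9.67 and 10.6 FPKM in F_P and 1.10, 0.906 and 1.39 FPKM in F_G, against 0.936, 0.760 and 0.867 FPKM in P and 0.454, 0.420 and 1.04 FPKM in G. The second, Podel.08G166900, had 19.2, 21.5 and 20.2 FPKM in F_P and 2.86, 2.31 and 3.26 FPKM in F_G, against 2.79, 2.06 and 2.33 FPKM in P and 2.91, 2.21 and 3.23 FPKM in G. In both, F_P was apart from the other 9 libraries and F_G, P and G overlapped. Whether the 2 genes share sequence, so that reads could be placed on either, was not tested.

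Podel.11G073800, with 27 exons on chromosome 11, from 7692714 to 7704320, was among the flattest of the 26 outside F_P. The 3 libraries gave 9.33, 8.56 and 9.76 FPKM in F_P and 1.82, 1.07 and 1.31 FPKM in F_G. Those of the other cultivars gave 1.23, 1.71 and 1.43 FPKM in P and 1.65, 1.24 and 1.60 FPKM in G. F_G minus G was -0.07 and P minus G -0.02 log2 units. Podel.02G258700 on chromosome 2, from 24154134 to 24156431, kept a higher level in F_G than in G. Its levels were 16.1, 16.3 and 19.96 FPKM in F_P and 1.73, 3.49 and 3.26 FPKM in F_G, against 1.73, 1.25 and 2.09 FPKM in P and 0.976, 0.834 and 1.85 FPKM in G. F_G exceeded G by 0.78 log2 units, and they overlapped only through the lowest F_G and the highest G library.

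The remaining 5 genes with F_P alone had no readable term. Podel.02G135100 lies on chromosome 2 from 10144576 to 10145234. In Podel.02G135100 there were 44.9, 47.7 and 43.5 FPKM in F_P and 8.95, 5.30 and 8.71 FPKM in F_G, against 12.1, 12.5 and 12.5 FPKM in P and 7.93, 12.1 and 6.76 FPKM in G. P was above G without overlap but by a narrow margin, and F_G overlapped G. Podel.06G208100 lies on chromosome 6 from 21458467 to 21461557. It had 26.2, 25.8 and 27.4 FPKM in F_P leaves and 5.82, 4.82 and 7.15 FPKM in F_G leaves, against 8.56, 6.76 and 6.29 FPKM in P leaves and 10.6, 10.4 and 8.07 FPKM in G leaves. F_P was apart, and F_G overlapped P. Its F_P minus F_G of 2.00 was the smallest of the 26, and scaling the libraries by the median of ratios put it outside the rule.

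Podel.05G267100 lies on chromosome 5 from 25868950 to 25872503. The 3 libraries gave 14.5, 15.99 and 16.97 FPKM in F_P and 3.68, 2.44 and 3.22 FPKM in F_G. Those of the other cultivars gave 4.66, 6.35 and 4.78 FPKM in P and 4.05, 5.14 and 4.95 FPKM in G. F_G was below all P and G libraries here, but by only 0.48 log2 units for the mean. Podel.15G050700 lies on chromosome 15 from 5308583 to 5310517. Its levels were 9.51, 7.84 and 9.45 FPKM in F_P and 1.47, 1.13 and 1.37 FPKM in F_G, against 1.41, 1.88 and 1.56 FPKM in P and 1.34, 0.425 and 1.16 FPKM in G. P was above G without overlap by a narrow margin. Podel.16G073500, on chromosome 16 from 5344817 to 5348560, was the most variable. In Podel.16G073500 there were 3.64, 6.14 and 14.2 FPKM in F_P and 1.18, 0.639 and 0.759 FPKM in F_G, against 4.84, 0.354 and 0.489 FPKM in P and 0.352, 6.31 and 0.429 FPKM in G. One P library and one G library of this gene reached the level of F_P, so that F_P was not separated from P and G, and it left the rule without F_P replicate 3, P replicate 1, G replicate 1 or G replicate 2. It overlaps its neighbour Podel.16G073600 by 99 bases on the same strand.

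In Podel.06G097600, on chromosome 6 from 7724857 to 7726876, both leaf colors of ZSY were above the other cultivars. It had 39.7, 38.1 and 40.6 FPKM in F_P leaves and 2.26, 3.69 and 2.72 FPKM in F_G leaves, against 0.658, 0.494 and 0.461 FPKM in P leaves and 0.766, 0.0629 and 0 FPKM in G leaves. F_P exceeded F_G by 3.40 log2 units, and F_G exceeded G by 1.64, with every F_G library above every P and G library. In G the fragments numbered 13, 1 and 0, so that the level there was set by 1 library.

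F_P lay above and F_G below the level of P and G in 3 genes. Podel.15G003000, which the study's pathway lists place in phenylpropanoid biosynthesis, the route that supplies the precursors of flavonoids and lignin, lies on chromosome 15 from 221166 to 224125. The 3 libraries gave 28.8, 29.5 and 28.1 FPKM in F_P and 2.51, 1.78 and 2.20 FPKM in F_G. Those of the other cultivars gave 11.1, 10.1 and 9.51 FPKM in P and 9.08, 8.57 and 11.2 FPKM in G. F_P lay 1.41 log2 units above P and F_G 1.75 below G, and none of the F_P or F_G libraries overlapped the 6 of P and G. Podel.11G107600 on chromosome 11, from 13226814 to 13228093, followed the same order. Its levels were 10.1, 8.67 and 9.33 FPKM in F_P and 0.106, 0.488 and 0 FPKM in F_G, against 1.99, 1.22 and 1.77 FPKM in P and 1.40, 1.78 and 1.31 FPKM in G. F_G had 2, 10 and 0 fragments, against 24 to 31 in G. Podel.01G436000, on chromosome 1 from 46970846 to 46972143, was the third. In Podel.01G436000 there were 9.23, 8.78 and 9.32 FPKM in F_P and 0, 0.702 and 0.422 FPKM in F_G, against 1.33, 3.60 and 2.46 FPKM in P and 4.12, 3.76 and 1.92 FPKM in G. Over all genes tested, 221 of 28339 (0.78%) had F_P libraries all above and F_G libraries all below the 6 libraries of P and G, and 7 of the 26 did. The limits of the rule make this order likely, so nothing is read from the share.

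In 5 genes only the green ZSY leaves stood at least 1 log2 unit apart from both P and G. Podel.08G077000, under transfer of glycosyl and hexosyl groups, the activity of enzymes that attach sugars to other molecules, lies on chromosome 8 from 5100089 to 5101968. It had 9.06, 9.85 and 10.97 FPKM in F_P leaves and 1.18, 0.689 and 0.940 FPKM in F_G leaves, against 7.92, 10.2 and 10.1 FPKM in P leaves and 6.62, 6.69 and 5.96 FPKM in G leaves. F_P and P overlapped and differed by 0.08 log2 units, while F_G lay 1.95 below G. Every P library was also above every G library. P minus G was 0.48, just within the limit of 0.5, and leaving out P replicate 1, G replicate 1 or G replicate 2 put the gene outside it.

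Podel.04G206700, a gene of 1 exon on chromosome 4 from 21168073 to 21168555, had no readable term. The 3 libraries gave 13.3, 8.64 and 11.4 FPKM in F_P and 1.89, 2.37 and 1.21 FPKM in F_G. Those of the other cultivars gave 4.73, 10.1 and 10.2 FPKM in P and 10.2, 10.4 and 8.52 FPKM in G. F_P overlapped with P and G, and F_G was below all of them. Podel.04G033800, on the same chromosome from 2668646 to 2676152, was intermediate. Its levels were 26.8, 26.4 and 23.96 FPKM in F_P and 2.21, 2.27 and 3.25 FPKM in F_G, against 15.5, 13.3 and 11.1 FPKM in P and 13.8, 14.7 and 9.77 FPKM in G. F_P was above P and G without overlap but by only 0.91 log2 units, and F_G was 1.94 below G.

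The other two genes with low F_G were short and rest on few fragments. Podel.01G293500, of 126 bases in 1 exon on chromosome 1 from 30060237 to 30060362, had 9, 18 and 23 fragments in F_P and 0, 4 and 1 in F_G, against 17, 12 and 19 in P and 23, 21 and 8 in G. Podel.14G023300, with 201 exon bases on chromosome 14 from 1651876 to 1653405, had 22, 17 and 16 fragments in F_P and 0, 2 and 3 in F_G, against 10, 11 and 6 in P and 12, 3 and 13 in G. In both, F_G was below every other library in FPKM. In Podel.14G023300 this rests on 0.973 FPKM in F_G replicate 3 and 1.06 FPKM in G replicate 2, with 3 fragments each. Every F_P library of Podel.14G023300 was also above the other 9, and F_P lay 0.79 log2 units above G. With a pseudocount of 0.1 this gene counted among those with F_P high and F_G low.

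**Figure D3:**
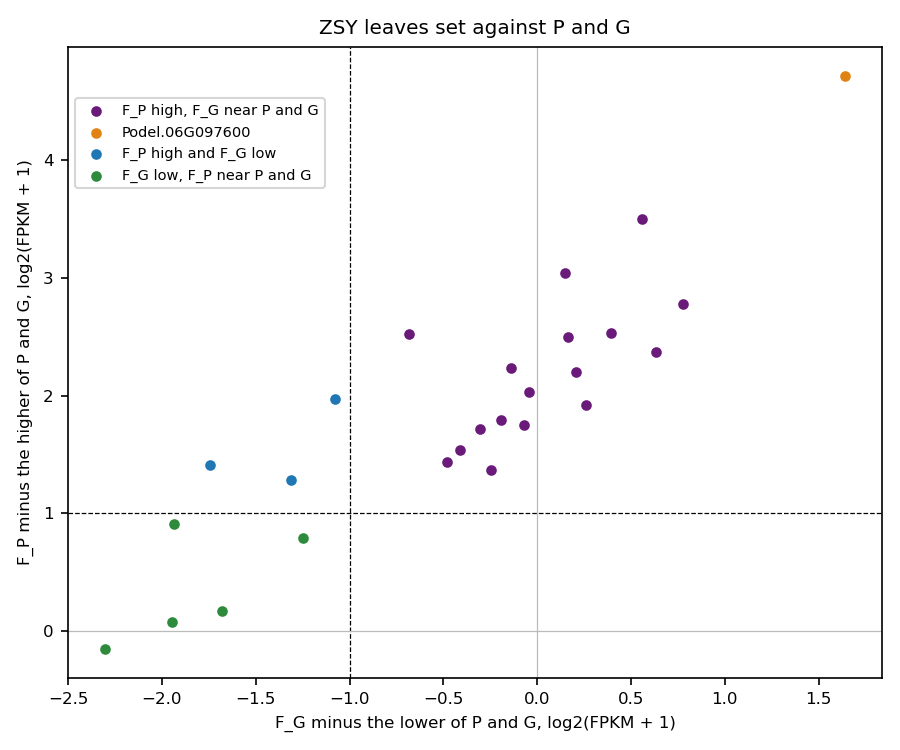
The position of ZSY leaves relative to P and G in each of the 26 genes. The x axis gives F_G minus the lower of the P and G means and the y axis F_P minus the higher of them, in log2(FPKM + 1), with dashed lines at -1 and 1. The 17 genes at the upper right of the dashed lines have F_P high, the 5 at the lower left have F_G low, 3 have both, and Podel.06G097600 lies apart at 4.72 on the y axis and 1.64 on the x axis.

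With the rule turned round (F_G at least 2 log2 units above F_P, at least 5 FPKM in F_G and the same limit on P and G), 96 annotated genes resulted. In 65 of these F_P was at least 1 log2 unit below both P and G, while F_G was not 1 unit above both. In 22 only F_G stood at least 1 unit above both, in 8 both held, and 1 had neither. Unlike above, the other ZSY group was not required to lie near P and G, and genes that the study lists were kept. F_P thus lay at least 1 log2 unit beyond both P and G in most genes in either direction. This count was chosen after the values were seen and is a description.

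Whether ZSY as a whole differed from the other cultivars is not fixed by the 2 differences of the rule alone, and is described by the mean of F_P and F_G minus the mean of P and G (limma, 12 libraries, Benjamini-Hochberg adjustment over 28339 genes). The minimum level asked of F_P enters this contrast, since a high F_P raises it, so that the values are a description and nothing is read from the counts. Of the 26 genes, 10 were higher in ZSY (adjusted p up to 0.05 and a difference of 1 log2 unit or more), against 4.62% of all genes tested, and 1 was lower, against 5.11%. The median difference was 0.82 log2 units over the 26 genes and -0.03 over all genes tested, and 19 of the 26 differences were above 0. Among the 164 genes higher in both purple groups, which passed the same minimum, the median was 0.96, 130 were above 0, 81 (49.4%) were called higher and 6 lower. The share called higher in the 26 was 38.5%.

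The largest of these differences were those of Podel.06G097600 (3.18 ± 0.14 log2 units, SE), Podel.02G013500 (2.03 ± 0.091) and Podel.02G258700 (1.78 ± 0.16). In all 3, F_P was high and F_G was also above G, by 1.64, 0.56 and 0.78 log2 units. Podel.T272600, Podel.19G005200, Podel.08G166500, Podel.08G166900, Podel.T275000, Podel.15G050700 and Podel.14G038500 were also called higher, by 1.05 to 1.60, with F_G minus G between -0.32 and 0.64. Of these, Podel.T272600 and Podel.14G038500 were under 1 FPKM in all of F_G, P and G and passed the filter only through the 3 F_P libraries, so that their call could hardly turn out otherwise. Podel.19G005200 and Podel.T275000 came close to this. Outside F_P they reached 1 FPKM only in F_G replicate 3 (1.01 FPKM) and in P replicate 1 (1.05 FPKM), respectively.

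At the other end, Podel.01G293500 was called lower in ZSY, with a difference of -1.23 ± 0.31 log2 units. Podel.08G077000 (-0.93 ± 0.093) and Podel.04G206700 (-0.76 ± 0.18) were negative but within 1 log2 unit of 0. Each had a low F_G and an F_P near P and G. Podel.01G436000 (-0.01 ± 0.20), Podel.15G003000 (-0.17 ± 0.081), Podel.14G023300 (-0.23 ± 0.25) and Podel.16G073500 (0.71 ± 0.49) did not pass the adjusted p of 0.05. Without a minimum size, 22 of the 26 passed, as did 55.6% of all genes tested.

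**Figure D4:**
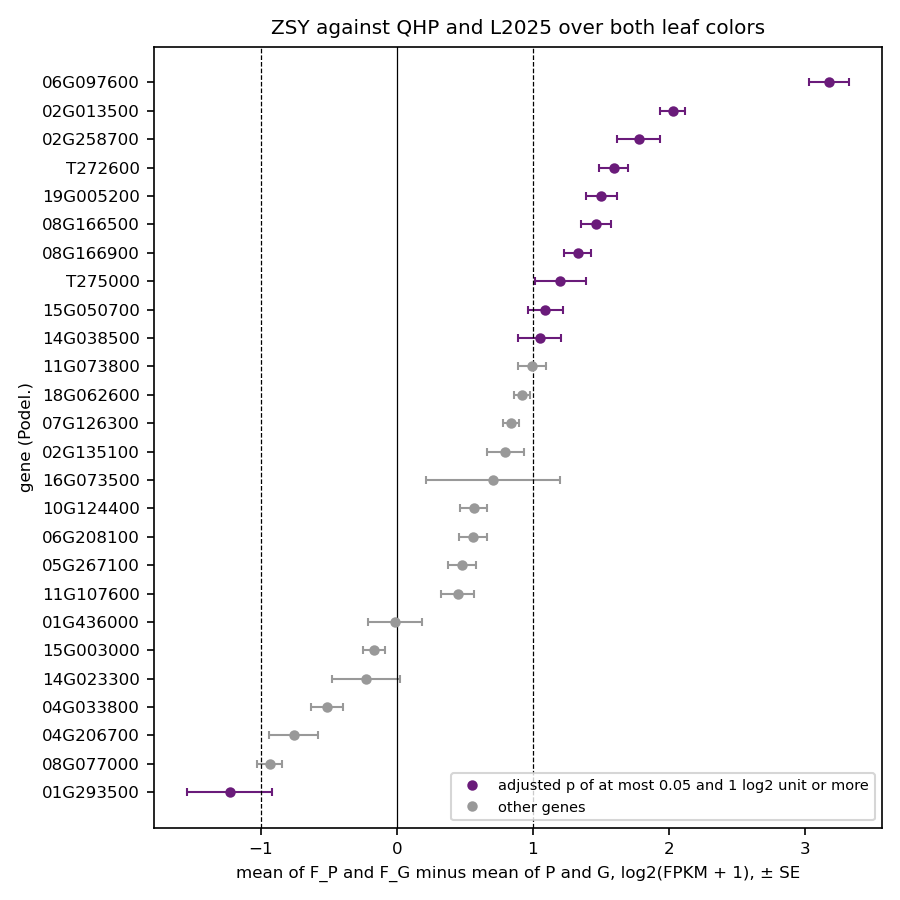
The mean of F_P and F_G minus the mean of P and G in log2(FPKM + 1) for each of the 26 genes, with the SE of the limma fit as bars (12 libraries). Filled purple points mark the 10 genes called higher and the 1 called lower, dashed lines mark -1 and 1, and the values run from -1.23 in Podel.01G293500 to 3.18 in Podel.06G097600.

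The 26 genes were spread over 14 chromosomes and 2 scaffolds of the deposited annotation, with at most 3 on one chromosome (2 and 8). They had a median of 4 exons and 1424.5 exon bases, against 5 exons and 1609.5 bases in the 16422 annotated genes with at least 5 FPKM in F_P. Genes of 1 exon made up 7.69% of them and 10.6% of the larger set. Genes of 2 exons made up 26.9% and 12.9%. None of these shares was tested.

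Genes next to the 26 were often higher in F_P as well. Of 49 adjacent genes, 12 (24.5%) had F_P at least 1 log2 unit above F_G, against 4.27% of the 32616 neighbours of all genes with at least 5 FPKM in F_P. These 12 stood beside 9 of the 26, all 12 on the strand of the gene they adjoin, while 30 of the 49 neighbours shared that strand. Of the 12, 6 also had P at least 1 log2 unit above G, and 4 had P and G within 0.5. At least 5 FPKM in F_P was reached by 8 of the 12. Neighbours of the other genes raised in F_P are not set beside these. Podel.14G038500 lay between Podel.14G038400 (2.36 log2 units for F_P minus F_G and 1.98 for P minus G) and Podel.14G038600 (3.65 and 3.42), at 18224 and 24076 bases. Podel.19G005200 adjoined Podel.19G005300 (2.28 and 2.56) at 1291 bases, and Podel.04G206700 adjoined Podel.04G206600 (1.62 and 1.95) at 3963 bases. A gene within the limit on P minus G could thus lie directly beside genes higher in both purple groups. Podel.14G038500 and Podel.19G005200, however, left the rule with 0.1 added in place of 1. In Podel.19G005200 every P library was also above every G library. Equal levels in P and G are thus not shown for these genes. These neighbours were looked up after the values were seen, and 1 of the 12, Podel.16G073600, overlaps its neighbour.

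Some of the 26 share their position with a gene on the other strand. Of the 26 genes 4 (15.4%) overlap such a gene, against 5.80% of the 16422 genes, and 3 of these were among the 5 with low F_G. Podel.04G033800 shares all of its 7507 bases with Podel.04G033700, whose means were 25.9 FPKM in F_P and 35.6 FPKM in F_G, against 35.0 FPKM in P and 21.0 FPKM in G. Podel.14G023300 lies within Podel.14G023200 (12.7 and 19.4 FPKM, against 18.6 and 23.8 FPKM in the same order of groups), and Podel.01G293500 within Podel.01G293300 (8.25 and 6.87 FPKM, against 9.31 and 14.7 FPKM). The partner of Podel.06G097600, Podel.06G097400, was at 1.40 FPKM in F_P and 1.26 FPKM in F_G, against 2.47 FPKM in P and 1.15 FPKM in G. F_P minus F_G of the 4 partners was -0.45, -0.57, 0.23 and 0.09 log2 units in this order. These overlaps are of whole gene spans, introns included, and shared exon bases were not looked up. The counting is not stated to use strand, and whether reads of partners were mixed was not tested.

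Of the 26 genes, 7 carried a term in the readable part of the study's gene ontology and pathway lists, and 19 did not. No term held more than 1 of them. Those lists were drawn from genes that the study found to differ in these same libraries, so that the pathways below are not independent of the data, and parts of them could not be read. Of 43 tested genes of glutathione metabolism, the pathway of Podel.T275000, 17 were called higher and 8 lower in F_P than in F_G, and of 44 tested in P vs. G, 16 were called higher and 18 lower in P. Their median difference was 0.88 log2 units between the ZSY leaves and 0.14 between P and G, beside 0.04 and -0.02 over all genes tested. Over all genes tested, 5.68% were called higher and 12.5% lower in F_P, and 9.85% higher and 16.2% lower in P. These shares are no background for lists drawn from genes called in the same libraries, and nothing is read from the counts of a pathway.

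In phenylpropanoid biosynthesis, the pathway of Podel.15G003000, 19 of 50 tested genes were called higher and 20 lower in F_P, and 21 of 52 higher and 21 lower in P. Flavonoid biosynthesis, which makes the anthocyanins themselves and holds none (0) of the 26, had 13 of 34 higher and 13 lower in F_P, and 13 of 40 higher and 21 lower in P. Genes of the plant circadian rhythm, which time expression over the day, had 11 of 17 higher and 0 lower in F_P and 9 of 20 higher and 3 lower in P. For protein processing in the endoplasmic reticulum, where new proteins are folded, the counts were 15 higher and 5 lower of 49 in F_P and 21 higher and 20 lower of 54 in P. Plant hormone signal transduction had 13 higher and 22 lower of 61 in F_P and 17 higher and 20 lower of 62 in P. Antenna protein genes were lower in 3 of 23 and higher in 0 in F_P, and lower in 22 of 23 and higher in 1 in P. DNA replication genes were lower in 4 of 9 and higher in 0 in F_P, and lower in 13 of 18 and higher in 2 in P.

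How far the rule depends on the libraries was examined by choosing genes on 2 replicates of each group and reading the third. With replicate 1 held out 35 genes were chosen, with replicate 2 held out 30, and with replicate 3 held out 44. In the held-out libraries, F_P was at least 1 log2 unit above F_G in 30, 27 and 40 of them, and at least 2 in 19, 19 and 25. P and G lay within 0.5 log2 units in 16, 17 and 26, and both limits of the rule were met by 9, 13 and 14. P and G were thus within 0.5 in 45.7%, 56.7% and 59.1% of the chosen genes, beside 50.5%, 52.2% and 52.0% of all annotated genes with at least 5 FPKM in F_P in the libraries used for the choice. Of genes at this level with P and G within 0.5 in the libraries used for the choice, 78.7%, 85.6% and 79.0% stayed within 0.5. The chosen genes thus kept this limit less often than flat genes in general. F_P was at least 1 log2 unit above F_G in 30 of 35 (85.7%), 27 of 30 (90%) and 40 of 44 (90.9%) chosen genes. Among all annotated genes at this level the shares were 8.50%, 8.52% and 7.22%. Among those with F_P at least 2 log2 units above F_G in the libraries of the choice, they were 93.5%, 96.0% and 94.4%. The chosen genes thus kept this difference slightly less often than raised genes in general, which was not tested. Of the 26, 6 had P and G means that were both under 1 FPKM, where a log2 scale with 1 added compresses differences, and 5 of these 6 left the rule with 0.1 added in place of 1.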

How the data were processed

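RNA-seq was performed on 12 libraries of poplar leaves, 3 in each of F_P, F_G, P and G, and groups and replicate numbers were taken from the sample labels. The authors mapped trimmed reads with HISAT2, assembled transcripts with StringTie, and deposited 1 FPKM value per gene and library. Tool versions: not given in the sources used here. No genome build is named in the deposited annotation, none (0) of its identifiers matched the reference gene table, and no genome was used, so that coordinates are those of the deposited annotation and functional terms are those readable in the study's own lists. The 26 genes, the lists and the tests were chosen with earlier results of these data known.

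Fragments were recovered as FPKM times exon length, and 100% of values came out whole within 0.02. The library size behind the FPKM was 0.942 to 1.09 times the fragments on annotated genes (0.942 to 0.966 in G and 1.08 to 1.09 in P), which enters P minus G. FPKM counts reads without molecular identifiers, so that fragment numbers cover counting error only.

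ZSY was compared with the other cultivars in limma 3.58.1 under R 4.3.3, with a trended prior on log2(FPKM + 1), from all 12 libraries and those genes that reached 1 FPKM in 3 libraries or more. The purple and green leaves of ZSY, and P and G, were fitted within their own 6 libraries with the same filter. Differences refer to the log2(FPKM + 1) scale, so that changes of low genes are understated. Calls needed an adjusted p (Benjamini-Hochberg) of 0.05 or less and 1 log2 unit or more. With 3 replicates per group an exact permutation test of 1 gene cannot go below p = 0.1, so none was used. The limma script was tested on simulated data. Alternatives were a pseudocount of 0.1, 2 scalings, no filter, voom on the recovered fragments, a replicate block, other limits of the rule, and leaving out each library.

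Same-numbered libraries did not deviate together (correlations of -0.24 to 0.093 over 18 pairs), so that replicate numbers were not used for pairing. Genes were named if they carried a readable term, had one of the 5 largest differences or levels, lay next to a limit, had one of the 3 most positive or negative ZSY differences, or lay within 5 genes of another of the 26. The remaining ones of the 26 and the neighbours were added after their values were seen. Tables were handled with Python 3.11.15 and pandas 2.3.3.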

Additional observations from a re-analysis of the deposited data

Results flagged for a closer look

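A transcript that the files list without a Podel identifier met the same limits as the 26 genes, the only one (1) of 1317 such transcripts to do so. Its levels were 29.4, 30.8 and 30.9 FPKM in F_P and 1.18, 1.03 and 0.472 FPKM in F_G, against 0.165, 0.564 and 0.522 FPKM in P and 0.0722, 0 and 0.0734 FPKM in G. The mean was 30.4 FPKM in F_P, 4.07 log2 units above F_G and thus beyond the largest difference among the 26 genes, and P minus G was 0.42. It was looked at because the rule takes only genes with a Podel identifier, which kept it out of the 26. It has no position or term in the annotation. It passed the filter of the fits and is among the genes tested, but its own fit values are not given.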

How the results depend on the processing

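The number of genes meeting the rule was 26. It was 43 with a pseudocount of 0.1 (18 shared with the 26), 13 and 66 with P and G within 0.25 and 1 log2 units, 93 and 10 with F_P at least 1.5 and 2.5 log2 units above F_G, and 13 with at least 10 FPKM in F_P. Scaling by the median of ratios kept 25 of the 26 and by the upper quartile 23. Without each library in turn it was 24 to 36, of which 21 to 26 were shared with the 26, and 13 genes stayed within the rule in all 12 of these sets. With 0.5 log2 units as the distance, 3 genes had F_G alone and 6 had both groups apart, and with 1.5 log2 units 0 genes had both. Leaving out single libraries gave 17 to 18 genes with F_P alone, 4 to 5 with F_G alone and 2 to 3 with both. With replicate 3 of every group held out, 14 of the chosen genes met both limits again, against 9 with replicate 1.

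The 10 genes called higher in ZSY became 18 without a minimum difference, and the 1 called lower became 4. With a pseudocount of 0.1 and with voom, 2 genes were lower, the second being Podel.08G077000 (-1.30 and -1.35 log2 units). Leaving out single libraries gave 8 to 11 higher, 1 lower, and a median of 0.69 to 0.91. Without an F_P library, Podel.T272600 and Podel.14G038500 fell below the filter and were not tested. Podel.14G038500 was also not called without F_G replicate 1 or P replicate 1 (0.95 and 0.93), nor Podel.15G050700 without G replicate 2 (0.98). Podel.11G107600, at 0.45 with 1 added, had -0.17 with a pseudocount of 0.1 and -0.54 with voom. Podel.01G436000, at -0.01, had -0.14 to 0.10 without single libraries, among them 0.093 without F_G replicate 1, 0.10 without P replicate 2, 0.00012 without P replicate 3, 0.063 without G replicate 1 and 0.037 without G replicate 2. The cause of these changes was not tested. With the replicate number as a block, which does not pair the samples here, 10 genes were higher, 1 was lower and the median was 0.82.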
